A study of Mus musculus with 13 samples.

Results

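The genes described here are 10 transcriptional and chromatin regulators of the naive state of mouse embryonic stem (ES) cells: Nanog, Klf2, Klf4, Esrrb, Tfcp2l1, Zfp42, Tbx3, Nr0b1, Prdm14 and Dppa3. They were chosen by symbol from a list, with no measured value in the rule, and each symbol was found as 1 Ensembl gene. They are 10 of 26797 genes with values in the replicate libraries and 10 of 49671 genes in a joint table of single libraries.

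RNA sequencing compared wild-type and Dnmt1−/− ES cells with ES cells that carry a dCas9-OGA fusion. Wild-type cells (labelled WT) were the AinV15 line, which holds rtTA in the Rosa locus, and Dnmt1−/− cells (labelled Dnmt1_null) were the D1-null strain with the C allele, a separate line, so genotype and line cannot be told apart. The dCas9-OGA and dCas9-OGA-D242A lines were made from AinV15 by cassette exchange under G418 selection. Each of these lines carried 4 sgRNAs against the U3 region of IAP elements and received 1 µg/mL doxycycline for 48 h. OGA removes O-GlcNAc from proteins, and the D242A form is the inactive control of the same fusion. All cells grew in serum with LIF on gelatin, a condition in which naive and primed-leaning cells are known to coexist. The replicate data held 3 WT and 3 Dnmt1−/− libraries. The joint table held 1 library each of WT, Dnmt1−/−, dCas9-OGA and dCas9-OGA-D242A. The labels do not say that the replicates were separate cultures, so p-values measured the spread between these libraries, which may be technical.

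The naive state is held by a network of transcription factors that bind one another's enhancers together with OCT4 and SOX2. LIF acts through JAK and STAT3 on Klf4 and Tfcp2l1, GSK3 inhibition or WNT relieves repression of Esrrb by TCF7L1, and FGF signalling through ERK drives exit. PRDM14 and DPPA3 connect the network to DNA methylation: PRDM14 represses Dnmt3a, Dnmt3b and FGF receptor genes, and DPPA3 restrains UHRF1, the partner that brings DNMT1 to newly copied DNA.

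The unit of the replicate data was a signal: the reads of a gene divided by 1 scaling factor per library. Reads recovered from it summed to 29286057, 37112247 and 26846275 in WT replicates 1, 2 and 3, and to 29772439, 30950554 and 27934568 in Dnmt1−/− replicates 1, 2 and 3. Replicate values below are given in that order. The single libraries held 25097983 (WT), 18693531 (Dnmt1−/−), 24955180 (dCas9-OGA) and 24828078 (dCas9-OGA-D242A) counts on genes.

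The labels were first checked on Dnmt1 (ENSMUSG00000004099, GRCm38 chr9:20907209-20959888, minus strand). Its signal was 308, 352 and 347 in WT and 73.6, 75.4 and 77.6 in Dnmt1−/− libraries. Every Dnmt1−/− library lay below every WT library, with a log2 fold change of −2.14 (SE 0.05, limma, adjusted p = 1.1e-20). In the single libraries Dnmt1 stood at 460.2 cpm (counts scaled to a common library size) in WT, 61.9 in Dnmt1−/−, 549 in dCas9-OGA and 376 in its D242A control. Transcripts of Dnmt1 were thus lower in both Dnmt1−/− data sets but not at 0.

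The first comparison asked how the naive network stands in Dnmt1−/− cells. It was tested with limma over 17297 genes, and a gene was called at an adjusted p below 0.05. Of the 10 members, 1 was higher in Dnmt1−/− cells (Dppa3), beside 35.8% of all genes tested, and 6 were lower (Klf2, Klf4, Esrrb, Tfcp2l1, Nr0b1 and Prdm14), beside 35.4%. Nanog, Zfp42 and Tbx3 were not called. With a change of at least 2-fold also required, 1 member was higher (Dppa3), beside 3.67% of genes, and 1 lower (Nr0b1), beside 9.41%. The WT and Dnmt1−/− libraries did not overlap for 10 of 10 members, beside 73.3% of genes tested. The median log2 fold change was −0.22 over the members and 0.01 over all genes tested. In bulk RNA, fewer cells of a type and less RNA per cell cannot be told apart, which applies to each of these genes.

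Nanog, the homeodomain factor at the centre of the network (ENSMUSG00000012396, chr6:122707489-122714633, plus strand), had a signal of 716, 680.2 and 723 in WT and 766, 738 and 737 in Dnmt1−/− libraries. The Dnmt1−/− values lay just above the WT values, with a gap of 14.1 between the groups. The log2 fold change was 0.08 (SE 0.05, limma, adjusted p = 0.17), so Nanog did not pass the test. Measured relative to the median of the other genes of chromosome 6 (−0.07), it was 0.15 (adjusted p = 0.015), past the threshold. Zfp42, which encodes the zinc finger protein REX1 and is widely used as a marker of naive cells (ENSMUSG00000051176, chr8:43295063-43306980, minus strand), had a signal of 798, 786 and 817 in WT and 858, 818 and 860.5 in Dnmt1−/− libraries. Its lowest Dnmt1−/− library was almost level with its highest WT library. The log2 fold change was 0.08 (SE 0.05, limma, adjusted p = 0.18), also short of the threshold.

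Klf4, a Krüppel-like factor that STAT3 activates (ENSMUSG00000003032, chr4:55527143-55532466, minus strand), had a signal of 425, 439 and 441 in WT and 391, 386 and 414 in Dnmt1−/− libraries. The third Dnmt1−/− library came close to the WT group without reaching it. The log2 fold change was −0.13 (SE 0.05, limma, adjusted p = 0.022). The call rested on single libraries: the adjusted p was 0.064 without WT replicate 3, 0.077 without Dnmt1−/− replicate 1 and 0.10 without Dnmt1−/− replicate 2, with log2 fold changes from −0.16 to −0.11 over the 6 fits that left out 1 library. Klf2, a Krüppel-like factor that ERK signalling restrains (ENSMUSG00000055148, chr8:72319033-72321656, plus strand), had a signal of 218, 232 and 235 in WT and 185, 177 and 189 in Dnmt1−/− libraries. All 3 Dnmt1−/− libraries were lower, by a log2 fold change of −0.31 (SE 0.05, limma, adjusted p = 4.4e-06).

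Tfcp2l1, a grainyhead-family factor downstream of STAT3 (ENSMUSG00000026380, chr1:118627945-118685168, plus strand), had a signal of 367, 376 and 397 in WT and 292, 308 and 319 in Dnmt1−/− libraries. The groups were clearly apart, and the gene fell with a log2 fold change of −0.31 (SE 0.05, limma, adjusted p = 8.7e-06). Esrrb, an orphan nuclear receptor that TCF7L1 represses (ENSMUSG00000021255, chr12:86361117-86521628, plus strand), had a signal of 769, 799.9 and 828 in WT and 579, 579.5 and 597 in Dnmt1−/− libraries. The Dnmt1−/− libraries were nearly level with one another and all well under the lowest WT library. The log2 fold change was −0.45 (SE 0.05, limma, adjusted p = 4.0e-08). Tbx3, a T-box factor that links PI3K signalling to Nanog (ENSMUSG00000018604, chr5:119670669-119684724, plus strand), had a signal of 408, 408 and 425 in WT and 389, 370.0 and 395 in Dnmt1−/− libraries. The Dnmt1−/− libraries were the lower ones by a small margin. The log2 fold change of −0.11 missed the threshold (SE 0.05, limma, adjusted p = 0.059), and Tbx3 passed it without Dnmt1−/− replicate 3 (−0.12, adjusted p = 0.047) and with edgeR (adjusted p = 0.032) or DESeq2 (adjusted p = 0.024) on recovered reads. Tbx3os1, on the opposite strand at this locus, had a signal between 5.43 and 7.03 in the 6 libraries. Whether the libraries kept strand is given differently by the labels and the methods of the study, so the assignment of reads between Tbx3 and Tbx3os1 is uncertain.

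Nr0b1, which encodes the nuclear receptor DAX1, a cofactor that binds OCT4 and LRH1 (ENSMUSG00000025056, chrX:86191764-86195947, plus strand), had a signal of 189, 191 and 196 in WT and 95.1, 86.2 and 88.1 in Dnmt1−/− libraries. The replicates of each group lay close together and far from the other group. Its log2 fold change of −1.09 (SE 0.05, limma, adjusted p = 1.5e-15), or 2.14-fold by the group means, was the largest fall among the 10 members. Prdm14, a PR-domain regulator that silences de novo methyltransferase genes (ENSMUSG00000042414, chr1:13113457-13127163, minus strand), had a signal of 41.2, 43.6 and 44.7 in WT and 26.1, 27.3 and 27.6 in Dnmt1−/− libraries. It was lower in all 3 Dnmt1−/− libraries, with a log2 fold change of −0.67 (SE 0.06, limma, adjusted p = 4.0e-10).

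Dppa3, which encodes STELLA, a protein of the oocyte, early embryo and germ line (ENSMUSG00000046323, chr6:122626410-122630272, plus strand), had a signal of 1.38, 1.74 and 1.40 in WT and 18.5, 17.4 and 14.2 in Dnmt1−/− libraries. It was near the floor of the measurement in every WT library, from 39 reads upward, and plainly detected in every Dnmt1−/− library, with up to 532 reads. The log2 fold change was 3.10 (SE 0.12, limma, adjusted p = 2.9e-17), and the group means differed by 11.1-fold. With a pseudocount of 5 in place of 0.5 the log2 fold change was 1.73. Dppa3 and Nanog lie 77.2 kb apart on chromosome 6, and Dppa3 passed the test where Nanog did not, except relative to the chromosome median.

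**Figure D1:**
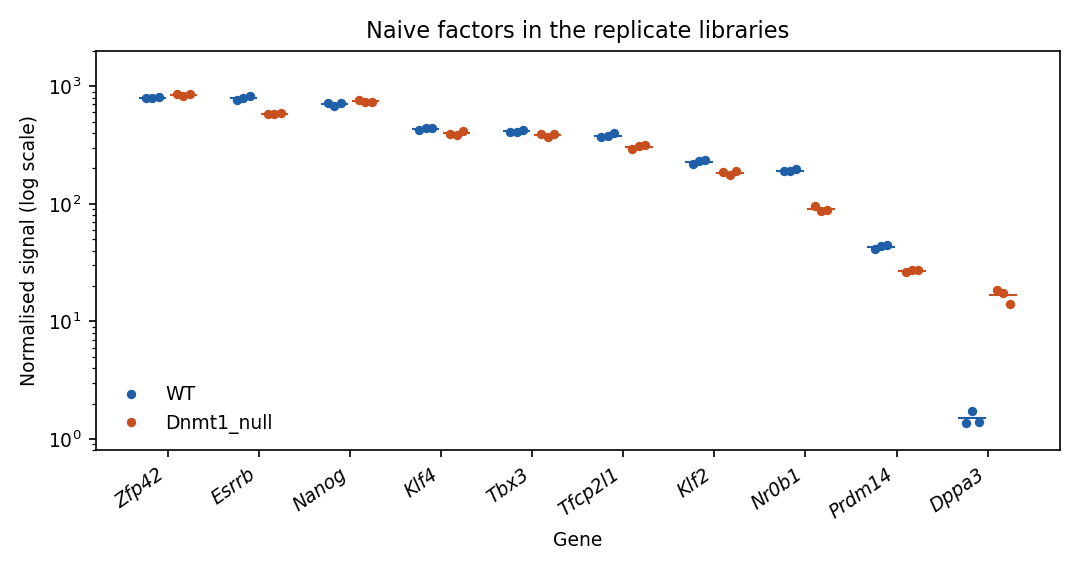
Signal of the 10 members in the 3 WT and 3 Dnmt1−/− replicate libraries on a log axis, with each point a library and each short line the group mean. Dppa3 rises from about the bottom of the plot (1.38 to 1.74 in WT) to between 14.2 and 18.5, and Nr0b1 falls from at least 189 to at most 95.1.

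Levels of different members were compared per kb of merged exon. In WT libraries the order by mean signal per kb was Zfp42 (426), Nanog (315), Klf4 (143), Esrrb (132), Klf2 (124), Nr0b1 (106), Tbx3 (62.5), Tfcp2l1 (40.2), Prdm14 (16.8) and Dppa3 (1.69). Esrrb and Klf2 overlapped between libraries, and the other neighbours in this order did not. In Dnmt1−/− libraries the order was Zfp42 (449.6), Nanog (333), Klf4 (130.3), Klf2 (99.5), Esrrb (96.7), Tbx3 (58.1), Nr0b1 (49.7), Tfcp2l1 (32.4), Dppa3 (18.7) and Prdm14 (10.5). Klf2 and Esrrb again overlapped and the other neighbours did not. Zfp42, Nanog and Klf4 thus held the same first places in both groups, Nr0b1 and Tbx3 exchanged places, and Dppa3 passed Prdm14 in Dnmt1−/− cells.

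The genes closest to the members with the largest rise and fall were sought among the other 17296 genes, by the mean absolute difference over the 6 libraries on a log2 scale set to the mean of WT. Closest to Dppa3 was Rhox5, with a signal of 23.5, 24.3 and 23.6 in WT and 195, 191 and 176 in Dnmt1−/− libraries (difference 0.12, log2 fold change 2.95). It was followed by 1700018B24Rik (0.13, log2 fold change 3.10), near the floor in WT and 14.8-fold apart by the group means, and Slc16a3 (0.15, log2 fold change 3.05). By the group means alone Rhox5 differed by 7.88-fold and Slc16a3 by 8.48-fold, against 11.1-fold for Dppa3, so this closeness depends on the pseudocount of 0.5. Closest to Nr0b1 were Il15 (0.02, log2 fold change −1.08), Col9a2 (0.02, log2 fold change −1.07) and Tnfrsf19 (0.03, log2 fold change −1.06). Il15 did not exceed a signal of 1.19 in any of the 6 libraries, and its group means differed by 4.11-fold against 2.14-fold for Nr0b1, so its closeness rests on the pseudocount too. Col9a2 had a signal of 62.6, 65.5 and 67.5 in WT and 32.5, 30.3 and 29.6 in Dnmt1−/− libraries, against which Nr0b1 stood higher in both groups.

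The lists around the members moved in both directions in Dnmt1−/− cells, as did all genes tested, of which 35.8% were higher and 35.4% lower. Of 12 further genes of the naive state, 4 rose (Pecam1 1.67, Dppa2 0.37, Dppa4 0.19 and Nr5a2 0.13 as log2 fold changes) and 5 fell (Tdh −0.70, Jam2 −0.67, Tcl1 −0.42, Alpl −0.42 and Fbxo15 −0.34), with a list median of −0.03 beside −0.22 for the 10 members. Among core pluripotency genes, Tdgf1 (0.31) and Utf1 (0.21) rose, and Sall4 (−0.21), Pou5f1 (−0.17) and Lin28a (−0.15) fell. Sox2 was not analysed here in the replicate libraries. LIF and STAT3 signalling, which feeds Klf4 and Tfcp2l1, had 2 of 9 genes higher (Socs3 0.69, Pim1 0.16) and 3 lower (Lifr −0.65, Il6st −0.27, Ptpn11 −0.17), with a median of −0.07. In the WNT, GSK3 and TCF7L1 list, which acts on Esrrb, 4 of 9 rose (Axin1 0.53, Tcf7 0.42, Gsk3a 0.24, Gsk3b 0.18) and 3 fell (Axin2 −0.54, Tcf7l1 −0.48, Apc −0.31), with a median of 0.08. Tcf7 did not exceed a signal of 0.52 in any of the 6 replicate libraries, about the size of the pseudocount, and reached 118 cpm in WT in the joint table.

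In the FGF and ERK pathway, which opposes Klf2, Etv4 (1.29) and Grb2 (0.85) rose, and Mapk3 (−0.76), Egr1 (−0.70), Fgfr1 (−0.42), Etv5 (−0.23), Fgfr2 (−0.19) and Spry2 (−0.13) fell. Genes tied to exit from the naive state had 2 of 7 higher (Zfp706 0.48, Tsc2 0.26) and 3 lower (Mbd3 −0.46, Flcn −0.22, Fnip1 −0.17). Their median was −0.09, the value of Tfe3, a listed gene that was not called. Of 8 DNA methylation factors and partners of PRDM14 and DPPA3, 5 rose (Dnmt3l 1.61, Dnmt3b 1.11, Uhrf1 0.37, Cbfa2t2 0.35, Dnmt3a 0.17) and 2 fell (Tet2 −0.35, Tet1 −0.32), with a median of 0.26. The genes that PRDM14 is known to repress were mixed in the libraries in which Prdm14 was lower: Dnmt3a and Dnmt3b were higher, and the FGF receptor genes Fgfr1 and Fgfr2 were lower. Whether Prdm14 had a part in this was not tested. Formative and primed epiblast genes had 2 of 10 higher (Foxd3 0.94, Tcf15 0.17) and 6 lower, led by Cdh2 (−1.86), Zic2 (−1.40) and Fgf5 (−1.24), with a median of −0.76. Fgf5 was near the floor, at no more than 2.46 in WT and 0.97 in Dnmt1−/− libraries. In the single Dnmt1−/− library against WT, the log2 ratio was −0.18 for Cdh2 and −0.09 for Zic2, and Fgf5 had too few counts. Over all genes tested the median was 0.01.

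Markers of other cell types also differed between the groups, beside 35.8% of all genes tested that were higher and 35.4% that were lower. Primitive endoderm markers rose in 7 of 8 cases (Cubn 1.31, Foxa2 1.18, Sox17 1.03), with a summed signal of 164, 165 and 165 in WT and 258, 254 and 269 in Dnmt1−/− libraries, a median of 0.93, and Gata6 or Dab2 as the most abundant gene. Trophoblast markers rose in 6 of 7 tested (Hand1 3.03, Krt18 1.20, Eomes 1.08) and fell in 1 (Krt7 −0.76), from sums of 46.5, 48.8 and 40.6 to 91.1, 90.9 and 89.9, with a median of 1.03, Krt18 the most abundant and Elf5 at 0 in WT replicate 3. Dppa3 rose beside both of these lists. Markers of 2-cell-like cells fell in 8 of 8 cases (Zscan4f −1.38, Zscan4c −1.35, Zscan4d −1.33), from sums of 541, 509.8 and 508 to 209, 238 and 205, with a median of −1.26 and Zscan4f or Zscan4c the most abundant. Neural markers fell in 2 of 3 tested (Nes −1.40, Pax6 −0.58), from sums of 111, 117 and 102 to 45.6, 44.8 and 42.6, with a median of −0.58 and Nes the most abundant. These lists fell together with Nr0b1 and Prdm14. Fibroblast markers fell in 8 of 8 cases (Dcn −2.96, Postn −2.82, Col1a2 −2.47), from sums of 1324, 1562 and 1089.8 to 279, 292 and 262, with a median of −2.21. Col1a1 was the most abundant of them, at 524, 654 and 440.1 in WT and 121, 133 and 119 in Dnmt1−/− libraries, and no marker of that list was at 0 in any of the 6 libraries. Primitive streak and mesoderm markers had 1 of 4 tested higher (Mixl1 0.61) and 1 lower (Evx1 −0.37), with a median of −0.11, sums of 14.0, 13.6 and 14.0 in WT and 12.2, 12.1 and 13.6 in Dnmt1−/− libraries, Kdr the most abundant and Mesp1 at 0 in WT replicate 2. The 6 members that were lower in Dnmt1−/− libraries fell beside the fibroblast, neural and 2-cell-like lists, and the part of these markers in the values of the members was not tested.

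The second comparison set the dCas9-OGA library beside the dCas9-OGA-D242A library, which differ in whether the fused OGA is active. They came from separate lines, so the activity of OGA and the line cannot be told apart. There was 1 library of each, so no test was made and no p is given. Values are cpm on library sizes scaled by TMM (trimmed mean of M values), ratios are log2 of cpm plus 0.5, and 95% Clopper-Pearson intervals cover counting error only. A ratio of at least 2-fold was counted among genes with at least 100 counts in the pair. Of the 10 members, Tbx3, Tfcp2l1, Prdm14 and Nanog, 4 in all, stood 2-fold or more higher in dCas9-OGA, beside 4.88% of 12722 genes, and 1 was at least 2-fold lower (Dppa3), beside 7.22%. The median log2 ratio was 0.74 over the members and 0.03 over all genes compared.

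Tbx3 stood at 274 cpm in WT, 92.3 in Dnmt1−/−, 243 in dCas9-OGA and 33.1 in D242A. Its low value in the D242A library set it apart, and the ratio of dCas9-OGA to D242A was 2.86 (2.75 to 2.96), 7.34-fold by cpm alone. Tbx3os1 had 15, 0, 16 and 5 counts in the same 4 libraries, few beside the 823 counts of Tbx3 in the D242A library. Tfcp2l1 stood at 201 cpm in WT, 128 in Dnmt1−/−, 929.6 in dCas9-OGA and 187 in D242A. The dCas9-OGA library was far above the other 3, of which Dnmt1−/− was the lowest, with a ratio to D242A of 2.31 (2.27 to 2.36), 4.98-fold by cpm alone. Genes of chromosome 1, where Tfcp2l1 and Prdm14 lie, were themselves higher in dCas9-OGA, with a median ratio of 0.33 over 750 genes. Relative to it the ratio of Tfcp2l1 was 1.99.

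Nanog stood at 321 cpm in WT, 311 in Dnmt1−/−, 388 in dCas9-OGA and 186 in D242A. It was high in dCas9-OGA and low in D242A, at a ratio of 1.06 (1.01 to 1.11), and just under 2-fold relative to the median of its chromosome (1.00). Prdm14 stood at 21.3 cpm in WT, 27.5 in Dnmt1−/−, 30.3 in dCas9-OGA and 13.0 in D242A. The D242A library was again the lowest, at a ratio of 1.18 (1.00 to 1.37), 2.32-fold by cpm alone. This ratio was 0.86 relative to the median of chromosome 1 and 0.97 with a pseudocount of 5 cpm, both under 2-fold.

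Dppa3 stood at 10.1 cpm in WT, 75.3 in Dnmt1−/−, 1.29 in dCas9-OGA and 29.3 in D242A, from 250, 1432, 32 and 729 counts. It was lowest in dCas9-OGA, at a ratio to D242A of −4.06 (−4.45 to −3.67). The ratio depends on the pseudocount at this depth: it was −2.45 with 5 cpm added, and the cpm values without a pseudocount differed by 22.7-fold. The annotated pseudogene Dppa3-ps held 147, 667, 8 and 306 counts in the 4 libraries, or 58.8%, 46.6%, 25.0% and 42.0% of the counts of Dppa3, so reads may be shared between them. With the counts of both summed, a setting chosen after seeing the data, the ratio was −4.32. Dppa3-ps was not analysed here in the replicate libraries.

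The other 5 members stayed under 2-fold. Nr0b1 stood at 187 cpm in WT, 215 in Dnmt1−/−, 198 in dCas9-OGA and 115 in D242A, so that D242A was the low library, at a ratio of 0.77 (0.71 to 0.84). Klf4 stood at 404, 208, 316 and 194 cpm in the same order, which left the WT and dCas9-OGA libraries above the other pair, at a ratio of 0.70 (0.65 to 0.76). Esrrb stood at 776, 576, 1085 and 764 cpm, highest in dCas9-OGA, at a ratio of 0.50 (0.48 to 0.53). Klf2 and Zfp42, both on chromosome 8, were the members other than Dppa3 with ratios below 0. Klf2 stood at 355, 409.6, 202 and 376 cpm, lowest in dCas9-OGA, at a ratio of −0.90 (−0.95 to −0.85). Zfp42 stood at 278, 482, 419.9 and 494 cpm, lowest in WT, at a ratio of −0.24 (−0.27 to −0.20). The median over 693 genes of chromosome 8 was −0.45, and relative to it Klf2 was at −0.45 and Zfp42 changed sign to 0.21.

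**Figure D2:**
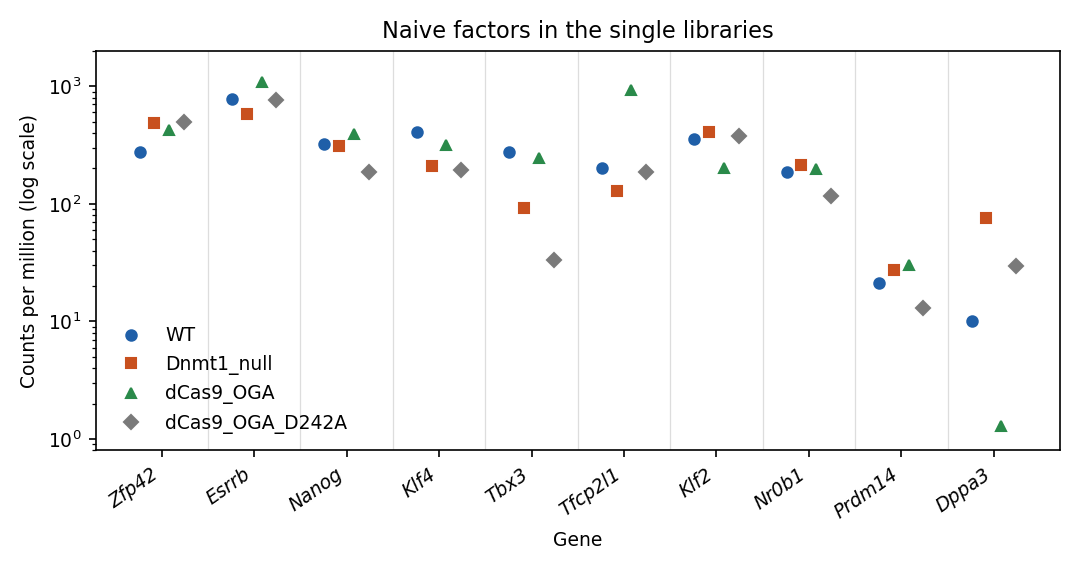
Level of the 10 members in the single libraries of WT, Dnmt1−/−, dCas9-OGA and dCas9-OGA-D242A cells, in cpm on a log axis, with each point a library. Tfcp2l1 reaches 929.6 cpm in dCas9-OGA, Tbx3 is at 33.1 cpm in D242A, and Dppa3 spans 1.29 to 75.3 cpm.

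Per kb of exon, Zfp42 held the highest level of the members in Dnmt1−/− (256 cpm per kb), dCas9-OGA (223) and D242A (263), and Klf2 (192) did in WT. The lowest member was Prdm14 in WT (8.31) and Dnmt1−/− (10.7), Dppa3 in dCas9-OGA (1.45) and Tbx3 in D242A (4.999). With 1 library each, the spread behind this order is unknown.

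The lists around the members were counted in the same pair, beside 4.88% of all genes compared at least 2-fold higher and 7.22% lower. Further genes of the naive state had 4 of 12 at least 2-fold higher in dCas9-OGA (Klf5 2.59, Gbx2 2.48, Dppa5a 1.29, Jam2 1.11) and 1 lower (Pecam1 −1.02), with a median of 0.62. Formative and primed epiblast genes had 1 of 10 higher (Foxd3 1.75) and 5 lower (Otx2 −3.29, Cdh2 −3.04, Zic2 −2.42, Zic5 −1.67, Sall2 −1.37), with a median of −0.93. DNA methylation factors had 1 of 8 higher (Tet2 1.87) and 2 lower (Dnmt3a −2.01, Dnmt3b −1.19), with a median of −0.03. Of the genes that PRDM14 is known to repress, Dnmt3a, Dnmt3b and Fgfr2 (−3.01) were lower by 2-fold or more in the library in which Prdm14 was higher, and Fgfr1 was at −0.81. A link to the level of Prdm14 was not tested. Fgfr1 lies on chromosome 8, where the median ratio was −0.45, and Prdm14 was under 2-fold (0.86) relative to the median of its chromosome. In the FGF and ERK pathway, Spry2 (1.30) and Etv4 (1.25) were at least 2-fold higher, and Egr1 (−1.89) was lower beside Fgfr2. WNT, GSK3 and TCF7L1 genes had 0 of 8 higher and 2 lower (Tcf7 −1.49, Axin2 −1.21), with a median of −0.02. Genes tied to exit from the naive state had 0 of 7 higher and 1 lower (Fnip1 −1.02), with a median of −0.47, the value of Tfe3. None of the 9 LIF and STAT3 genes (median 0.04) differed by 2-fold in this pair.

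Markers of other cell types were mostly low in both libraries. Primitive endoderm markers had 4 of 6 higher in dCas9-OGA (Sox7 3.94, Cubn 1.34, Gata6 1.26, Pdgfra 1.25), with a median of 1.26 and sums of 57.9 cpm in WT, 23.8 in Dnmt1−/−, 49.2 in dCas9-OGA and 24.3 in D242A. Cubn (10.6 cpm) was the most abundant of them in dCas9-OGA and Dab2 (10.0 cpm) in D242A. Trophoblast markers had 3 of 5 lower (Hand1 −3.17, Krt18 −1.85, Krt7 −1.49), with a median of −1.49 and sums of 290.4, 54.3, 35.3 and 91.8 cpm in the same order, of which Krt18 was the most abundant at 191, 25.5, 17.3 and 63.6 cpm. Krt18 and Dppa3 were thus both lowest in dCas9-OGA. Neural markers had 1 of 4 higher (Sox1 2.99) and 2 lower (Pax6 −2.67, Nes −1.31), with a median of −0.88, sums of 69.3, 64.0, 38.3 and 58.3 cpm, Nes the most abundant and Neurog2 at 0 in Dnmt1−/−. Fibroblast markers had 2 of 5 lower (Col1a2 −1.83, Col1a1 −1.15), with a median of −0.03 and sums of 61.2, 34.9, 57.5 and 74.5 cpm, with Thy1 the most abundant. No 2-cell-like or mesoderm marker had enough counts to be compared in this pair, and their sums were 39.6, 1.37, 0.564 and 1.69 cpm and 13.7, 11.05, 1.61 and 4.10 cpm. Usp17lc and Kdr were the most abundant of these lists in WT, Hand2 was at 0 in both dCas9 libraries, Zscan4f, Zfp352, Tcstv3 and Duxf3 were at 0 in dCas9-OGA, and Zscan4f was also at 0 in Dnmt1−/−. Dppa3 was lower beside the trophoblast markers, and the 4 members at least 2-fold higher stood beside higher primitive endoderm markers. Their part in the result was not tested.

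The next comparisons set each dCas9 library, and the single Dnmt1−/− library, against the single WT library. They share the WT library, so a value peculiar to it enters all 3, and the cassette, selection and doxycycline cannot be told apart from the fusion. The labels name the aligner TopHat2 for the dCas9 libraries and HISAT2 for the WT and Dnmt1−/− replicates, and none for the single WT and Dnmt1−/− libraries, so the aligner may also differ along these comparisons. In dCas9-OGA against WT, 1 of 10 members was at least 2-fold higher (Tfcp2l1), beside 14.0% of 12746 genes, and 1 lower (Dppa3), beside 9.78%. In D242A against WT, 1 was higher (Dppa3), beside 12.5% of 12933 genes, and 2 lower (Tbx3 and Klf4), beside 8.28%. In Dnmt1−/− against WT, 1 was higher (Dppa3), beside 10.5% of 12593 genes, and 1 lower (Tbx3), beside 6.89%. Dppa3 was thus counted in each of the 3, lower in dCas9-OGA and higher in the others. The same shares of all genes stand beside the counts of the lists below. The median log2 ratio of the members was 0.18, −0.40 and 0.08 in these comparisons, beside −0.03, 0.01 and −0.07 over all genes compared.

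Tfcp2l1 had a log2 ratio of 2.21 (2.16 to 2.25) in dCas9-OGA against WT, 1.82 relative to the median of its chromosome. Its ratio was −0.11 in D242A and −0.65 in Dnmt1−/− cells, so the dCas9-OGA library alone among the 3 was above WT. Tbx3 had ratios of −0.17 in dCas9-OGA, −3.03 (−3.13 to −2.93) in D242A and −1.56 (−1.64 to −1.49) in Dnmt1−/− cells. It was below WT in all 3, by 8.27-fold in D242A and 2.97-fold in Dnmt1−/− cells on cpm alone. Dppa3 had ratios of −2.56 (−2.97 to −2.15), 1.49 (1.29 to 1.70) and 2.84 (2.65 to 3.03) in the same order. It was thus below WT in dCas9-OGA and above WT in the other pair. Summed with Dppa3-ps, the ratios were −2.97, 1.35 and 2.75, and with a pseudocount of 5 cpm the ratio in dCas9-OGA was −1.26.

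Klf4 was below WT throughout, with ratios of −0.35, −1.06 (−1.11 to −1.01) and −0.95. The value in D242A was −0.99 relative to the median of its chromosome, under 2-fold. Nanog had ratios of 0.27, −0.79 and −0.05, with D242A the low library. The last interval (−0.10 to 0.00) touched 0, and the sign changed with median-of-ratios scaling and, to 0.03, relative to the median of its chromosome. Esrrb had ratios of 0.48, −0.02 and −0.43, which placed D242A level with WT within counting error (−0.05 to 0.01). Klf2 had ratios of −0.81, 0.08 and 0.21, so dCas9-OGA was the low library, and the D242A ratio changed sign to −0.20 relative to the median of chromosome 8. Zfp42 was above WT in all 3, at 0.60, 0.83 and 0.79. Nr0b1 had ratios of 0.08, −0.69 and 0.20, and Prdm14 had ratios of 0.50, −0.69 and 0.36. Relative to the median of chromosome 1, Prdm14 was at 0.11 in dCas9-OGA. Both genes were lower than WT in D242A and higher than WT in the other libraries.

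The replicate and single Dnmt1−/− libraries were compared with WT in separate tables, and their values are set side by side only as directions. Of the 7 members called in the replicates, Klf4, Esrrb, Tfcp2l1 and Dppa3 had the same direction in the single pair. Klf2, Nr0b1 and Prdm14 had the opposite direction. Nr0b1 shows the contrast most plainly: it was below WT in all 3 replicates and at 215 against 187 cpm in the single pair.

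Further genes of the naive state had 2 of 12 at least 2-fold higher (Klf5 1.58, Tcl1 1.02) and 1 lower (Dppa2 −1.76) in dCas9-OGA against WT, with a median of 0.46. In D242A they had 2 higher (Pecam1 1.53, Fbxo15 1.36) and 3 lower (Gbx2 −2.39, Dppa2 −1.41, Klf5 −1.01), with a median of −0.37. In the single Dnmt1−/− library they had 1 higher (Fbxo15 1.51) and 1 lower (Gbx2 −1.39), with a median of 0.05. Trophoblast markers were lower than WT in 6 of 7, 6 of 7 and 5 of 7 cases in the dCas9-OGA, D242A and Dnmt1−/− libraries, with medians of −3.14, −1.91 and −2.50, and 4 of 4 markers of 2-cell-like cells were lower in each (Usp17lc, Gm8300, Zscan4d and Zscan4c). Primitive endoderm markers were lower in 1 of 7 (Sox17), 5 of 7 (Sox7, Sox17, Gata6, Pdgfra and Gata4) and 5 of 7 (Sox17, Gata4, Gata6, Dab2 and Pdgfra), with medians of −0.46, −1.32 and −1.35. In the single Dnmt1−/− library they thus stood below WT where Dppa3 stood above it, whereas in the replicates both were above WT.

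Formative and primed epiblast genes were lower than WT in 7 of 10, 5 of 10 (Foxd3, Sox3, Zic2, Tcf15 and Sall2) and 0 of 10 cases in the same order, with medians of −2.08, −0.97 and −0.14. Fibroblast markers were lower in 1 of 5 (Col1a2), 0 of 5 and 4 of 5 (Col1a2, Pdgfrb, Col1a1 and Col3a1), with medians of −0.35, 0.16 and −1.10. Mesoderm markers were lower in 2 of 2 (T and Kdr), 1 of 2 (T) and 2 of 3 (T and Evx1). Neural markers were lower in 2 of 4 (Pax6 and Nes), 0 of 4 and 0 of 4, with Sox1 higher in dCas9-OGA and Pax6 in Dnmt1−/− cells. Of 8 DNA methylation factors, 2 were higher (Tet2 2.64, Tet1 2.12) and 3 lower (Dnmt3l −1.98, Dnmt3a −1.96, Dnmt3b −1.54) in dCas9-OGA, 1 higher (Tet1 2.06) and 1 lower (Dnmt3l −1.64) in D242A, and 2 higher (Tet1 1.51, Tet2 1.31) and 0 lower in Dnmt1−/− cells, with medians of −0.03, −0.14 and 0.02. Tet1 and Tet2 were lower in the Dnmt1−/− replicates. Of the genes of this list that rose there, Dnmt3a (0.44) was above 0 in the single Dnmt1−/− library. Uhrf1 (−0.53), Dnmt3l (−0.31), Dnmt3b (−0.14) and Cbfa2t2 (−0.04) were below 0.

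LIF and STAT3 genes were higher in 3 of 9 (Jak2 2.47, Jak1 1.45, Lifr 1.22), 2 of 9 (Jak2 2.59, Lifr 1.11) and 2 of 9 cases (Jak2 2.36, Lifr 1.03) and lower in 0, with medians of 0.10, 0.09 and −0.03. Jak2 was at 1.98 cpm (49 counts) in the shared WT library and at 13.2, 14.4 and 12.2 cpm in the others. Lifr was lower in the Dnmt1−/− replicates (−0.65). Of the members that LIF and STAT3 signalling feeds, Klf4 was below WT in all 3, and Tfcp2l1 was at 2.21, −0.11 and −0.65. A link between the list and these members was not tested. Among core pluripotency genes, Lin28a (−1.14) and Sall4 (−1.11) were lower than WT in dCas9-OGA, and Sall4 (−1.22) was lower in D242A. WNT, GSK3 and TCF7L1 genes were higher in 1 of 9 throughout (Apc 3.27, 2.88 and 2.51) and lower in 3 (Lef1 −4.93, Axin2 −2.30, Tcf7l1 −1.18), 2 (Lef1 −4.05, Axin2 −1.10) and 1 (Axin2 −1.12), with medians of −0.43, −0.40 and −0.30. Apc was at 21.3 cpm in the shared WT library and at 210, 160 and 124 cpm in the others. Genes tied to exit from the naive state were higher in 1 of 7 throughout (Fnip1 1.27, 2.29 and 1.63) and lower in 1 (Mbd3 −1.18), 0 and 0. Their medians were −0.26, −0.24 (the value of Tfe3) and −0.11. The part of the markers in the values of Tbx3, Klf4, Tfcp2l1 and Dppa3 was not tested.

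RefSeq promoter windows (GRCm38.p6) of 300 bases, from 250 before to 50 after the start, were found for 7 of 10 members, Nanog and Esrrb with 2 each. Klf4 held 40 CpG (observed to expected ratio 0.97), Klf2 held 32 (0.89), Tfcp2l1 21 (0.66), Nr0b1 14 (0.55) and Zfp42 11 (0.44), against a median of 7 (0.38) over 32851 windows. The windows of Esrrb held 7 and 7 CpG, and those of Nanog 4 and 4. Motifs were searched as letters on both strands: the octamer ATTTGCAT (in 1.74% of all windows), the ESRRB motif TCAAGGTCA (0.423%), the KLF motif CCNCNCCC (49.5%), the STAT motif TTCNNNGAA (8.30%) and the T-box motif TCACACC (3.98%). The octamer matched the window of Zfp42 at 1 place, the STAT motif matched 1 window of Esrrb at 1 place, the KLF motif matched all 9 windows of the members, and neither the ESRRB nor the T-box motif matched any of the 9. A match describes letters, not a bound site.

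The windows of 3 members are shown: Nr0b1 for the largest fall in Dnmt1−/− replicates, Tfcp2l1 for its level in dCas9-OGA, and Zfp42 as the member with the highest level per kb in the replicates. They lie at chrX:86191525-86191824 (plus strand), chr1:118627695-118627994 (plus strand) and chr8:43306960-43307259 (minus strand) of GRCm38.p6, and capitals mark motif matches on either strand, 1 KLF match in Nr0b1, 2 in Tfcp2l1, and 4 beside the octamer in Zfp42.
Nr0b1: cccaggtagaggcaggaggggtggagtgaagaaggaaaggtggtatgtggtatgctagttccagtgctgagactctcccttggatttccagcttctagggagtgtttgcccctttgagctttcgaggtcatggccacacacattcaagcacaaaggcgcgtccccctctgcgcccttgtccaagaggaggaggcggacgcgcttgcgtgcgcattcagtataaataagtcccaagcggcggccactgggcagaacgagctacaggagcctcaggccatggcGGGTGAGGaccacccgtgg
Tfcp2l1: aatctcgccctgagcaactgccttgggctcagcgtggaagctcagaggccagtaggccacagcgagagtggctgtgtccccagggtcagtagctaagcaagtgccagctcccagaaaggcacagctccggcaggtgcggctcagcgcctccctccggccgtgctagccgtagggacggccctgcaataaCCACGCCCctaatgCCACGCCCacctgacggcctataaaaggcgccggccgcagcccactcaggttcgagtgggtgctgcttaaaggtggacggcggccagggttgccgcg
Zfp42: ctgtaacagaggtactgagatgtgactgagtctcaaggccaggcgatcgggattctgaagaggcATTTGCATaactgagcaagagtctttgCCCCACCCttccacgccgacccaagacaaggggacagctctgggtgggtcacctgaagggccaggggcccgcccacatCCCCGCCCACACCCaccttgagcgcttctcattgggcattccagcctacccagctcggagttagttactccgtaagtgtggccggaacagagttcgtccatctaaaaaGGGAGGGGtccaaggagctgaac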

How the data were processed

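RNA of mouse ES cells was sequenced by the authors, and samples were grouped by their GEO labels. The deposited replicate files (3 WT, 3 Dnmt1−/−) hold a signal, reads divided by a scaling factor per library. Their header lines name other columns than the files hold, and values were read by column position. Whole reads were recovered for 100% of values (tolerance 0.01). The deposited joint table holds a count per gene for 1 library a condition. The authors used bcl2fastq 2.17, TopHat2 2.0.11 or HISAT2 2.1.0, and featureCounts 1.5.0. The single WT and Dnmt1−/− libraries are not tied to any replicate.

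Replicates were tested with limma 3.58.1 (trend, R 4.3.3) on log2(signal + 0.5) after the filterByExpr filter of edgeR 4.0.16, with Benjamini-Hochberg adjustment over 17297 genes and calls at 0.05. Count tests on recovered reads used edgeR and DESeq2 1.42.0. Single libraries were scaled by TMM, with ratios of cpm + 0.5 and intervals from the split of summed counts. Summaries were made in Python 3.11.15 with NumPy 2.4.6 and pandas 2.3.3, intervals with SciPy 1.17.1, and plots with matplotlib 3.10.9. Positions and exon lengths came from GENCODE vM21 (GRCm38), which matched 26679 of 26797 and 49412 of 49671 genes. Replicate pairs of a group differed beyond sampling noise, with chi-square per degree of freedom from 2.83 to 9.89. Same-numbered WT and Dnmt1−/− libraries were not paired: the correlations of their deviations across genes were 0.07, −0.02 and 0.07.

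Members and lists were chosen with earlier results of these data known. Named genes were the 10 members, Dnmt1, up to 3 genes per list with the largest absolute log2 fold change among those called in the replicates, any gene behind a count of 5 or fewer, and the 3 genes closest to the members with the largest rise and fall. Counts over the FGF and ERK list and the core pluripotency list are not reported here. Genes named for such small counts were chosen after their values were seen. Alternatives covered scaling, pseudocount, filters, count tests, leaving out each replicate, a replicate block, fold thresholds and centring on the chromosome median. Chromatin immunoprecipitation samples were not used here.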

Additional observations from a re-analysis of the deposited data

Results flagged for a closer look

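Klf2, Nr0b1 and Prdm14 differed in direction between the replicate libraries and the single pair of Dnmt1−/− and WT. Each was lower in every Dnmt1−/− replicate than in every WT replicate, with log2 fold changes of −0.31, −1.09 and −0.67. In the single libraries the log2 ratio of Dnmt1−/− to WT was 0.21 for Klf2 (0.16 to 0.25), 0.20 for Nr0b1 (0.14 to 0.26) and 0.36 for Prdm14 (0.19 to 0.53). Relative to the median of the X chromosome Nr0b1 was at 0.09. The intervals cover counting error only, and with 1 library of each the difference between the data sets was not tested.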

How the results depend on the processing

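The 10 members kept the direction of their replicate log2 fold change under all 17 alternatives each. Of these 170 values, 155 stayed on the same side of the threshold. Of the others, 8 lost the call, 3 of them for Klf4 without WT replicate 3, Dnmt1−/− replicate 1 or Dnmt1−/− replicate 2 (limma, adjusted p = 0.064, 0.077 and 0.10) and 5 where 2-fold was also required (Klf2, Klf4, Esrrb, Tfcp2l1 and Prdm14), and 7 gained it, 6 for Tbx3, 1 of them without Dnmt1−/− replicate 3 (adjusted p = 0.047), and 1 for Nanog. Dppa3 was higher in every fit that left out 1 library, 5 to 7 members were lower, and 5882 to 6185 genes were higher and 5804 to 6104 lower. With the replicate block 1 member was higher and 7 lower, with 6344 genes higher and 6212 lower, and Tbx3 had an adjusted p of 0.027. On recovered reads edgeR called 6026 genes higher and 6226 lower, and DESeq2 5665 and 5739. With a mean signal of at least 5, 11374 genes were tested, of which 4964 were higher and 3645 lower, so that 57.7% of calls were higher against 50.3% without this filter. The cause was not tested. Relative to the chromosome median 2 members were higher and 7 lower, with 6126 and 6215 of 17237 genes. With 2-fold also required, 1 member was lower, 634 genes higher and 1627 lower.

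In the single libraries the cause of differences between settings was not tested, except that a larger pseudocount, lower fold or lower count minimum by construction counts fewer or more genes. With a pseudocount of 5 cpm, genes higher and lower at 2-fold numbered 318 and 365 in dCas9-OGA against D242A, 1177 and 603 in dCas9-OGA against WT, 923 and 561 in D242A against WT, and 817 and 332 in Dnmt1−/− against WT. With at least 10 counts, in the same order, genes higher and lower numbered 772 and 1405, 2051 and 1940, 1914 and 1444, and 1659 and 1312. At 1.5-fold they numbered 1676 and 1929, 3117 and 2764, 3063 and 2548, and 2483 and 2251. Members higher and lower at 1.5-fold numbered 6 and 2 in dCas9-OGA against D242A, 2 and 2 in dCas9-OGA against WT, 2 and 5 in D242A against WT, and 2 and 3 in Dnmt1−/− against WT. Relative to the chromosome median 2 members were higher and 1 lower in dCas9-OGA against D242A, beside 536 and 870 genes. In D242A against WT 1 was higher and 1 lower, beside 1594 and 1048 genes.

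Of 51 alternative ratios of the members in each comparison, 35, 35, 44 and 38 stayed within the counting interval. Signs changed for Zfp42 in dCas9-OGA against D242A, Klf2 in D242A against WT and Nanog in Dnmt1−/− against WT. Depth limits Dppa3 most, with 32 counts in dCas9-OGA.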

Other observations

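Members differed in level between the WT replicates and the single WT library, whose scales were set separately. Nanog had a mean signal of 706 in the replicates and 321 cpm in the single library, and Zfp42 800.4 and 278. Klf2 went the other way, at 228 and 355, as did Dppa3, at 1.51 and 10.1. Klf4 (435 and 404), Esrrb (799 and 776) and Nr0b1 (192 and 187) were close on both scales. No test compares these values.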
